A study of Arabidopsis thaliana with 9 samples.

Results

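The aquaporin family of Arabidopsis thaliana comprised 35 of the 38202 genes in the count table, chosen by their identifiers and grouped by name, with a hyphen for the usual semicolon, into 5 PIP1, 8 PIP2, 10 TIP, 9 NIP and 3 SIP genes. Their transcripts were counted by RNA sequencing in leaves of the ecotype Columbia, grown for 6 days on MS, a salt mixture used for plant culture. There were 3 libraries labelled CK, taken as plants without silver because no other control is labelled, 3 labelled Ag+ for silver ions and 3 labelled AgNPs for silver nanoparticles. The labels state neither a dose nor the length of exposure, and they mention pooled RNA without saying that libraries of a group came from separate plants, so the p-values measure only the spread between these libraries, which may be technical. Enough counts for a test were found for 29 of the 35 genes and for 19889 genes in all.

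Aquaporins are channel proteins that let water, and in some members small neutral solutes, cross a membrane. PIPs lie in the plasma membrane, TIPs in the tonoplast that bounds the vacuole, SIPs mainly in the endoplasmic reticulum, and NIPs, named after a protein of soybean root nodules, include channels for boric acid and other metalloids. Silver ions are known to block water transport through aquaporins, which is a property of the protein and was not measured here.

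The water pore is lined by a pair of short loops, each of which carries the motif Asn-Pro-Ala in classical members. In the coding sequences of the RefSeq annotation (assembly TAIR10.1), both motifs were spelled by codons for asparagine, proline and alanine in 5 of 5 PIP1, 8 of 8 PIP2, 10 of 10 TIP, 4 of 9 NIP and 0 of 3 SIP genes. The motif coding stretches below, read 5′ to 3′ on the coding strand with the 3 codons of the motif in capitals, show a member called for silver ions from the PIP2 and TIP subfamilies beside a NIP in which the last codon of both motifs differs and a SIP in which that of the first motif differs.
PIP2-1 first loop (chromosome 3): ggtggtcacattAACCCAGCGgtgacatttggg
PIP2-1 second loop (chromosome 3): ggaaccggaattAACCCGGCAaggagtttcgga
TIP2-2 first loop (chromosome 4): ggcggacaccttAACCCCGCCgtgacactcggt
TIP2-2 second loop (chromosome 4): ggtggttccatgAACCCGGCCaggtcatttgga
NIP5-1 first loop (chromosome 4): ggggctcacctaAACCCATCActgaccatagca
NIP5-1 second loop (chromosome 4): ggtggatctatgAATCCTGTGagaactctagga
SIP1-1 first loop (chromosome 3): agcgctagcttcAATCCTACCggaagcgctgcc
SIP1-1 second loop (chromosome 3): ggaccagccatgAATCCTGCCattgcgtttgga

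Members of a subfamily can be close copies, and PIP2-2 and PIP2-3 were the closest pair, with 94.8% of 858 aligned coding bases identical and a longest identical run of 242 bases. Their second loops are shown for comparison, with the motif in capitals.
PIP2-2 second loop (chromosome 2): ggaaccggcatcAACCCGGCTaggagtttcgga
PIP2-3 second loop (chromosome 2): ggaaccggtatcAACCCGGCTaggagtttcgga
Reads of 150 bases from such runs can match either gene, and how they were assigned is not given in the sources used here, so the separate values of PIP2-2 and PIP2-3 are uncertain. The next closest pairs were NIP4-1 and NIP4-2 at 88.2% and PIP1-1 and PIP1-2 at 87.6%. Of the 35 loci, 8 overlap another annotated gene, among them TIP2-1, TIP3-1, NIP2-1 and SIP2-1. Without the strand setting, reads from the shared stretches cannot be assigned with certainty, and the length of these stretches was not measured. TIP5-1, also among the 8, had 0 counts where its neighbour AT3G47450 had 12901.

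Total counts per library ranged from 16884010 to 19876151. Levels are given in CPM, the read count relative to a library size scaled by the TMM method, and values listed for a group follow its replicate numbers. The 10 photosynthesis genes used to check the organ summed to between 27693 and 40329 CPM in CK, between 53056 and 63865 in Ag+ and between 39827 and 57596 in AgNPs. The 14 root markers were present as well, at 1868 to 3272 CPM, nearly all from PYK10. Without PYK10 the other 13 summed to 74.5 CPM in AgNPs 1 and to 8.49 to 27.6 CPM elsewhere. The 10 heat-shock genes were uneven within groups, with sums of 87.7, 85.1 and 575 CPM for CK, 55.5, 42.1 and 145 for Ag+ and 164, 611 and 786 for AgNPs. In bulk leaves, fewer cells of a type and less RNA per cell cannot be told apart.

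**Figure D1:**
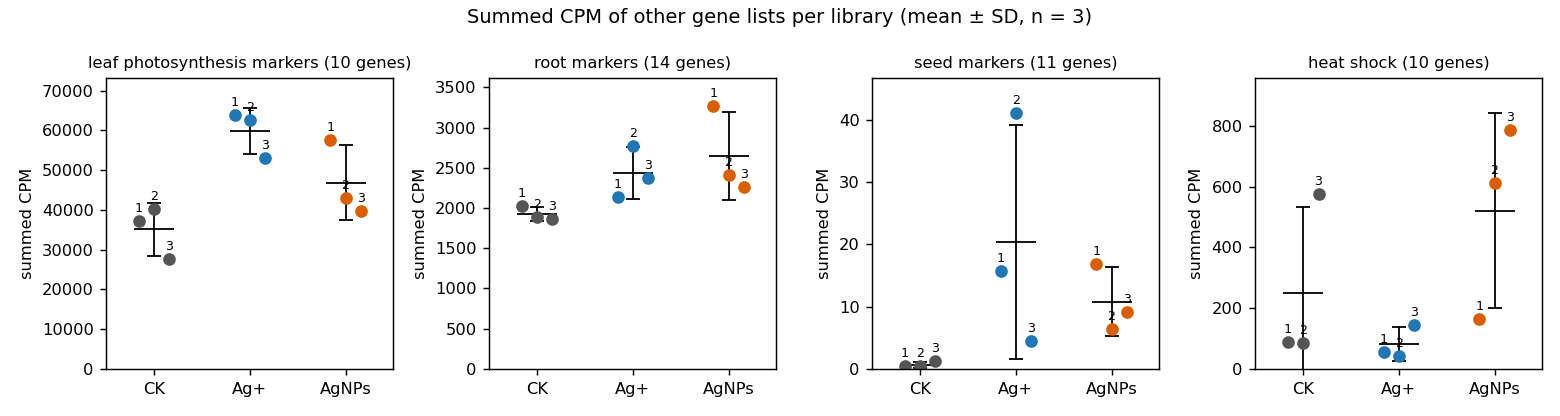
Summed CPM of 4 marker lists (vertical axes, from 0) in the 9 libraries by group, with points numbered by replicate and bars for the mean ± SD of 3 libraries. AgNPs 1 was the highest of its group for photosynthesis, root and seed genes and the lowest for heat-shock genes.

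Leaf aquaporin transcripts were mostly those of the tonoplast. Levels compared between genes are given as CPM per kilobase of the longest annotated transcript. In CK the highest was TIP1-2, a tonoplast water channel, at 1312 ± 232 CPM per kb (SD, n = 3), followed by TIP2-1 at 436 ± 141 and TIP1-1 at 360.5 ± 56.9. TIP1-2 stood above the next gene in each group without overlap of the libraries, while TIP2-1 and TIP1-1 overlapped in CK and Ag+. Then came PIP2-7 at 258 ± 53.9 and PIP1-2 at 213 ± 14.2 CPM per kb, whose libraries also overlapped. Low but tested genes included NIP3-1 at 0.584 ± 0.0167 and NIP7-1 at 0.254 ± 0.120 CPM per kb.

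The TIP genes together held 58.4% ± 1.64 of the family's CPM in CK, 55.7% ± 1.67 in Ag+ and 55.9% ± 1.52 in AgNPs (SD, n = 3). PIP2 held 21.3% ± 0.799, 24.3% ± 1.66 and 23.3% ± 0.435, and PIP1 17.5% ± 1.26, 18.1% ± 0.728 and 18.3% ± 1.15. NIPs stayed under 1 percent of the family, at 0.740% ± 0.301, 0.540% ± 0.0812 and 0.770% ± 0.0263. TIP1-2 alone accounted for 64.4% of the mean TIP level, and SIP1-1 for 79.4% of the SIP level.

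**Figure D2:**
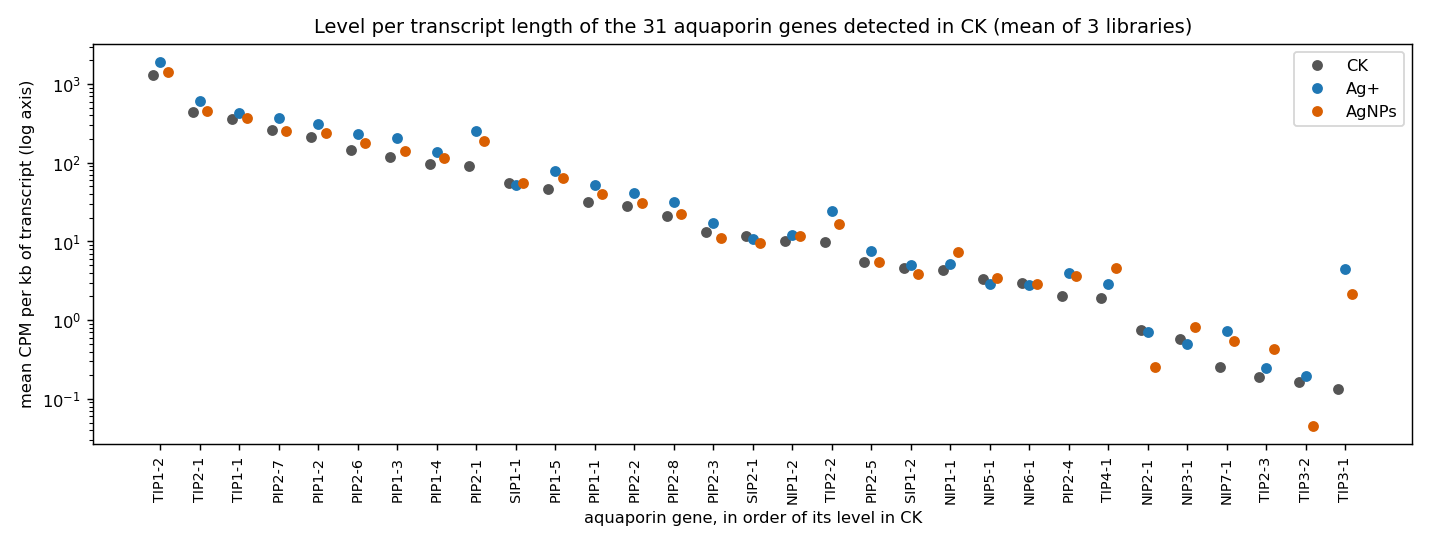
Mean level of the 31 aquaporin genes detected in CK, in CPM per kb of transcript on a log axis, ordered by the CK level, with 1 point per group (3 libraries each). TIP1-2 led in each group, and PIP2-1 moved from the 9th place in CK to the 6th with either form of silver, where its libraries overlapped those of the genes next to it.

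Transcripts of 3 genes were counted 0 times in all 9 libraries, namely TIP1-3, TIP5-1 and NIP4-1, which are known from pollen or flowers. A count of 0 in 162733616 counts allows up to 3 counts, or 0.0184 CPM. NIP4-2, another pollen gene, had 0 counts in CK, 1 in Ag+ and 5 in AgNPs. TIP2-3, a root tonoplast gene, had 13, 15 and 29, and TIP3-2, a tonoplast gene of seeds, had 11, 12 and 3. These 6 genes were not tested. The pollen markers were also low, with 2 of 6 at 0 throughout and a sum of 0.587 to 1.78 CPM.

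Silver ions were compared with CK first. PIP2-1, PIP2-6, PIP2-8, TIP2-2 and TIP3-1 rose, 0 members fell and 24 were not called. TIP3-1 had enough counts for a test only through the silver libraries, where it was high. By subfamily, 3 of 8 PIP2 genes and 2 of 6 tested TIP genes rose, against 0 of 5 PIP1, 0 of 7 NIP and 0 of 3 SIP genes. Calls were made at an adjusted p under 0.05 in edgeR's quasi-likelihood test over all 19889 genes, of which 5.57% were called, 3.52% higher and 2.05% lower. The median log2 fold change was 0.52 over the 29 aquaporin genes and -0.0087 over all genes tested.

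PIP2-1 (AT3G53420), a major water channel of the plasma membrane in leaf veins and guard cells, measured 175, 122 and 137 CPM in the libraries of CK, 416, 518 and 279 in those of Ag+, and 395, 275 and 228 in those of AgNPs. All 6 silver libraries lay above all 3 CK libraries. With Ag+ it was 2.80-fold higher (log2 fold change 1.48, SE 0.27, edgeR adjusted p = 0.0146). With AgNPs the log2 fold change was 1.05 (SE 0.27, adjusted p = 0.0707), short of the threshold. The Ag+ call was lost without CK 2 (adjusted p = 0.0621), Ag+ 1 (0.0532) or Ag+ 2 (0.0563), and the AgNPs value was called without Ag+ 3 (0.0463) and with the replicate number as a block (0.0356).

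PIP2-6 (AT2G39010), a plasma membrane channel of shoots, measured 326, 352 and 268 CPM in the libraries of CK, 502, 538 and 458 in those of Ag+, and 436, 381 and 335 in those of AgNPs. The Ag+ libraries lay above those of both other groups, and AgNPs overlapped CK. It rose 1.59-fold with Ag+ (log2 fold change 0.66, SE 0.14, edgeR adjusted p = 0.0280). Its call was lost without any 1 of the CK or Ag+ libraries (adjusted p = 0.0726, 0.0519 and 0.0581 without CK 1 to 3, and 0.0822, 0.105 and 0.0521 without Ag+ 1 to 3), and without AgNPs 2 (0.0539), with log2 fold changes of 0.54 to 0.73.

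PIP2-8 (AT2G16850), a less abundant plasma membrane channel, gave 33.3, 33.1 and 28.1 CPM for the CK libraries, 48.8, 48.1 and 43.7 for the Ag+ libraries and 36.0, 29.6 and 34.3 for the AgNPs libraries. The Ag+ libraries again stood apart from all others. It rose 1.49-fold with Ag+ (log2 fold change 0.57, SE 0.12, edgeR adjusted p = 0.0266). The call was lost without CK 1, CK 2 or CK 3 (adjusted p = 0.0571, 0.0735 and 0.0582) and without Ag+ 1, Ag+ 2 or Ag+ 3 (0.0843, 0.0935 and 0.0507).

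TIP2-2 (AT4G17340), a tonoplast channel known mainly from roots and the vasculature, gave 14.7, 7.57 and 17.1 CPM for the CK libraries, 33.4, 38.1 and 27.7 for the Ag+ libraries and 27.9, 23.2 and 16.6 for the AgNPs libraries. All Ag+ libraries lay above CK, while AgNPs 3 lay within the range of CK. The rise with Ag+ was 2.51-fold (log2 fold change 1.33, SE 0.30, edgeR adjusted p = 0.0339). The call was lost without CK 1 (adjusted p = 0.0718), CK 2 (0.0541), Ag+ 1 (0.0974), Ag+ 2 (0.118), Ag+ 3 (0.0564) or AgNPs 2 (0.0585), with the replicate block in the 6 libraries compared (0.0595) and with heat-shock level as a covariate (0.0717). The phloem markers, SUC2, APL and AHA3, summed to 251 to 320.3 CPM in Ag+ against 191 to 204 in CK and 167 to 213 in AgNPs, and their part in this result was not tested.

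TIP3-1 (AT1G73190), the tonoplast channel of seed storage vacuoles, gave 0, 0.0569 and 0.409 CPM for the CK libraries, 5.09, 9.67 and 1.23 for the Ag+ libraries and 4.30, 1.33 and 1.97 for the AgNPs libraries. CK did not overlap either silver group, on 9 counts in CK, 273 in Ag+ and 134 in AgNPs. The CK libraries held 0, 1 and 8 counts, so TIP3-1 passed the filter on counts only through the silver libraries, where it was high. Genes as low in all groups, such as TIP3-2, were not tested. The log2 fold change was 5.03 with Ag+ (SE 1.06, edgeR adjusted p = 0.0279) and 3.94 with AgNPs (SE 1.07, adjusted p = 0.0896). The call was lost without CK 1 (adjusted p = 0.0734), CK 2 (0.102), Ag+ 1 (0.0707) or Ag+ 2 (0.0898), with limma voom (0.163), in a fit of only the 6 libraries compared (0.0532), with the replicate block (0.0669, and 0.0719 in those 6 libraries) and with the heat-shock covariate (0.0912).

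Seed transcripts moved with TIP3-1. The 11 seed markers summed to between 0.397 and 1.23 CPM in CK, to 15.7, 41.1 and 4.40 for the Ag+ libraries and to 16.9, 6.35 and 9.17 for the AgNPs libraries, so that Ag+ 2 was highest and Ag+ 3 lowest of the Ag+ group for both the markers and TIP3-1. Of the list, 2 markers (CRB and SESA4) were at 0 throughout and 3 were tested, of which the storage protein gene CRA1 (log2 fold change 5.30, edgeR adjusted p = 0.0150) and the oil body gene OLEO1 (5.29, adjusted p = 0.0339) rose with Ag+. In CK, CRA1 stood at 0.0992 to 0.358 CPM and OLEO1 at 0 to 0.205. Both passed the filter on counts only through the silver libraries, where they were high, so their calls are no separate support. With AgNPs, 1 of the 3 tested markers rose, CRA1 (log2 fold change 4.59, edgeR adjusted p = 0.0369), and their median was 3.94. The part of seed RNA in the TIP3-1 result was not tested. TIP3-2, its seed partner, stood at 0 to 0.500 CPM in all groups. AT1G73200, the gene whose annotation overlaps TIP3-1, was fitted at -0.11 on the log2 scale (SE 0.21, adjusted p = 0.848).

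**Figure D3:**
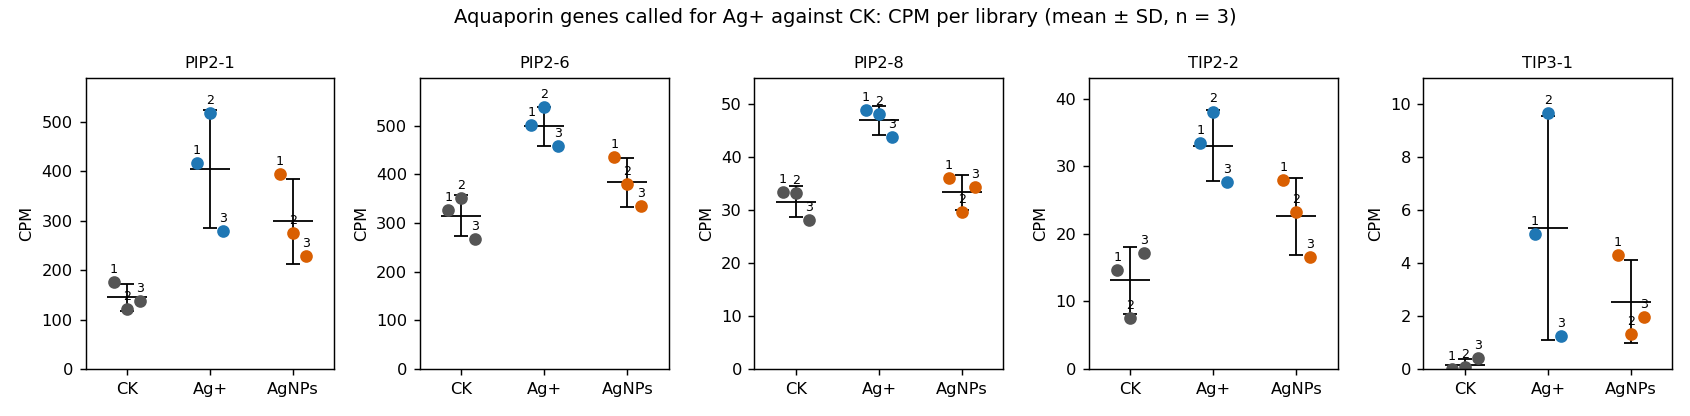
CPM per library (vertical axes, from 0) of the 5 aquaporin genes called for Ag+ against CK, with points numbered by replicate and bars for the mean ± SD of 3 libraries. The Ag+ libraries lay above all CK libraries in each panel, and AgNPs lay above CK without overlap for PIP2-1 and TIP3-1.

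The uncalled PIP and TIP genes had values on the same side. The 5 PIP1 genes, which form plasma membrane channels together with PIP2 partners, had log2 fold changes of 0.51 to 0.79 for Ag+ against CK, with a median of 0.75, which is the value of PIP1-5. PIP1-2 (AT2G45960), the PIP1 gene with the most counts, measured 345, 313 and 305 CPM in the libraries of CK, 388, 561 and 445 in those of Ag+, and 458, 335 and 289 in those of AgNPs. Its Ag+ libraries lay above CK, with a fitted log2 change of 0.53 (SE 0.19, edgeR adjusted p = 0.150). With the replicate number as a block, PIP1-1 (0.76, adjusted p = 0.0278) and PIP1-3 (0.79, adjusted p = 0.0481) were called as well. In a blocked fit of only the 6 libraries compared, so were PIP2-2 (adjusted p = 0.0427) and PIP2-7 (0.0363). The labels do not state that equal numbers pair libraries.

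PIP2-7 (AT4G35100), the PIP2 gene with the most counts, gave 435, 488 and 319 CPM for the CK libraries, 619, 709.5 and 447 for the Ag+ libraries and 509, 369.6 and 353 for the AgNPs libraries. Ag+ 3 overlapped CK, and the log2 fold change was 0.52 (SE 0.22, edgeR adjusted p = 0.240). The PIP2 values ranged from 0.40 for PIP2-3 to 1.48 for PIP2-1. PIP2-5 stood at 0.49 on this scale (SE 0.17, adjusted p = 0.134). PIP2-4, known mainly from roots, ranged over 2.16 to 3.52 CPM (CK), 4.81 to 6.61 (Ag+) and 4.08 to 7.07 (AgNPs), with a fitted log2 change of 0.95 for Ag+ (SE 0.27, adjusted p = 0.0775). PIP1-4 was called without CK 3 (adjusted p = 0.0350), without AgNPs 1 (0.0486) and without both (0.00835), and PIP2-4 without AgNPs 1 (0.0408) and without both (0.0400). DESeq2 called 7 genes for Ag+ against CK, with PIP1-4 (0.0317) and PIP2-4 (0.0299) added to the 5, and limma voom called 4.

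TIP1-2 (AT3G26520), the most abundant aquaporin transcript, gave 1843, 1886 and 1347 CPM for the CK libraries, 2299.6, 2842 and 2198 for the Ag+ libraries and 2179, 1735 and 1567 for the AgNPs libraries. The Ag+ libraries lay above the others, and the log2 fold change against CK was 0.53 (SE 0.18, edgeR adjusted p = 0.143). TIP1-1, its closest relative, ranged over 369.8 to 509 CPM (CK) and 450.1 to 653 (Ag+), which overlap, and its log2 fold change was 0.24 (SE 0.17, adjusted p = 0.500). TIP2-1 ranged over 331 to 653 CPM (CK) and 513 to 909 (Ag+), with a fitted log2 change of 0.48 (SE 0.28, adjusted p = 0.407).

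Among the 29 tested genes, Ag+ and CK libraries did not overlap in 16 that were higher with Ag+ and in 1 that was lower, SIP1-1. A log2 fold change above 0 was fitted for 23 of them, against 48.7% of all genes, and an unadjusted p under 0.05 for 17, all higher, against 19.2%. Over all genes tested the share without overlap was 23.3%, 12.7% higher and 10.7% lower. Ag+ 2 had the highest value of its group in 18 of the 29 genes, among them 5 of 5 PIP1 and 5 of 6 TIP genes, and in 32.8% of all genes tested. The 16 without overlap were 5 of 5 PIP1, 7 of 8 PIP2, 3 of 6 TIP and 1 of 7 NIP genes. TIP3-1 and NIP7-1, among these, had enough counts for a test only through the silver libraries. Summed over a subfamily, CPM in the Ag+ libraries lay above CK for PIP1 (1047 to 1479 against 737 to 861), PIP2 (1331 to 1907 against 824 to 1067) and TIP (3397 to 4281 against 2208 to 2972). The photosynthesis markers also lay higher in Ag+ without overlap, with 6 of 10 called higher and a median log2 fold change of 1.13 (3 of 10 and 0.78 with AgNPs), and their part in these sums was not tested. Over all genes tested, 3.52% were called higher with Ag+ and 2.23% with AgNPs.

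**Figure D4:**
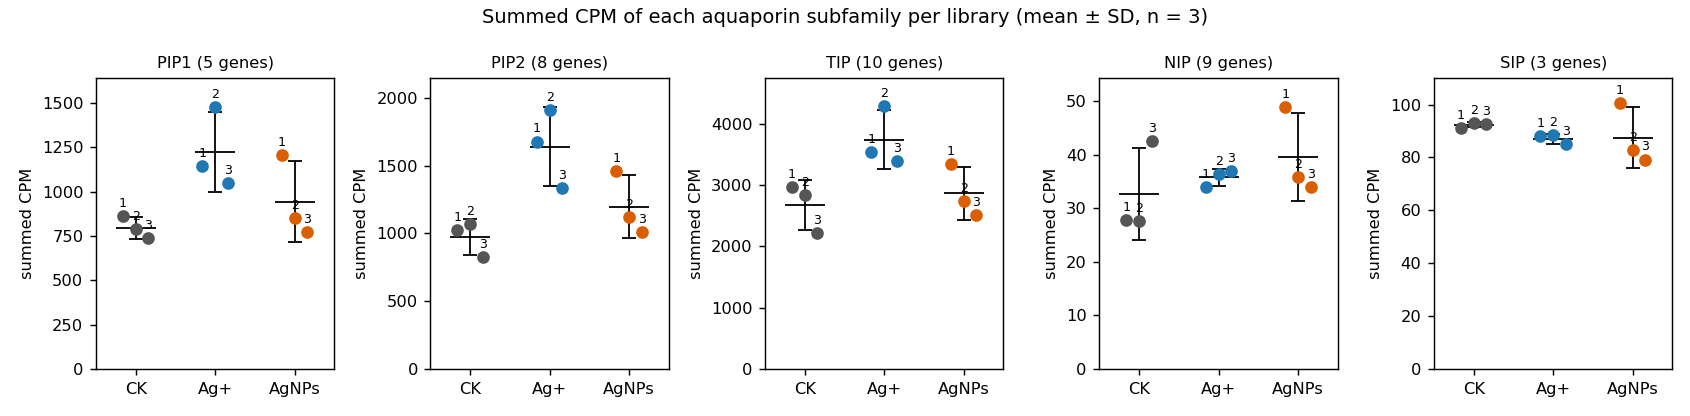
Summed CPM of all members of each subfamily (vertical axes, from 0) in the 9 libraries, with points numbered by replicate and bars for the mean ± SD of 3 libraries. For PIP1, PIP2 and TIP the Ag+ libraries lay above CK and AgNPs overlapped CK, and for SIP the Ag+ libraries lay below CK by a ratio of means of 0.943.

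NIP and SIP genes had medians of -0.083 and -0.091 for Ag+ against CK. NIP1-2 (AT4G18910), the NIP with the most counts, measured 13.1, 14.9 and 13.7 CPM in the libraries of CK, 17.4, 17.9 and 14.5 in those of Ag+, and 15.4, 16.5 and 17.5 in those of AgNPs. Its groups overlapped for CK and Ag+ (log2 fold change 0.26, SE 0.13, edgeR adjusted p = 0.327). SIP1-1 (AT3G04090), the SIP with the most counts, was lower in Ag+ than in CK without overlap, with 70.0, 75.1 and 72.4 CPM for the CK libraries, 69.1, 67.7 and 67.4 for the Ag+ libraries and 80.6, 67.3 and 66.0 for the AgNPs libraries. Its log2 fold change was -0.091 (SE 0.11, adjusted p = 0.725). SIP1-2 and SIP2-1, the other SIPs, were not called, nor was NIP6-1, a boric acid channel of shoots, at -0.083 (SE 0.40). NIP7-1, known from anthers, had only 19 counts in CK and 49 in Ag+, with a fitted log2 change of 1.51 (SE 0.54, adjusted p = 0.152).

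Of the members known from roots, NIP5-1, NIP1-1 and TIP4-1 were uneven within groups. NIP5-1, a boric acid channel, measured 4.91, 4.84 and 11.9 CPM in the libraries of CK, 5.94, 5.17 and 7.56 in those of Ag+, and 13.5, 5.17 and 3.89 in those of AgNPs. CK 3 and AgNPs 1 were the highest libraries. NIP1-1 gave 3.77, 4.33 and 9.57 CPM for the CK libraries, 4.05, 7.11 and 9.97 for the Ag+ libraries and 14.8, 7.48 and 7.25 for the AgNPs libraries, highest in AgNPs 1 and next in Ag+ 3. TIP4-1 reached 10.9 CPM in AgNPs 1 and 1.59 to 4.22 CPM elsewhere. The root markers other than PYK10 were also highest in AgNPs 1, at 74.5 CPM, and stood at 27.6 CPM in Ag+ 2, where NIP5-1 was low, at 25.1 in CK 3 and at 8.49 to 12.3 in the others. Their part in these values was not tested. These 3 genes were singled out after their values were seen. Other members went the other way, at levels under 1 CPM in AgNPs. TIP2-3, the root gene not tested, gave 0.369, 0.935 and 0.213 CPM for the AgNPs libraries, highest in AgNPs 2. NIP2-1 gave 0.0615, 0.246 and 0.586 CPM there, lowest in AgNPs 1, and 0 in CK 3. Values of PIP2-4 and TIP2-2, also known mainly from roots, are given above.

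Silver nanoparticles were compared with the same CK libraries, which both comparisons share. By edgeR, 0 of the 29 aquaporin genes were called, where 3.32% of all genes tested were, 2.23% higher and 1.09% lower. An unadjusted p under 0.05 was found for 4 genes, PIP2-1, PIP2-4, TIP2-2 and TIP3-1, against 17.0% of all genes. Of these, TIP3-1 had enough counts for a test only through the silver libraries, where it was high. DESeq2 called PIP2-1 and TIP3-1, and limma voom called 0. The median log2 fold change was 0.17 over the family and -0.0026 over all genes, and 22 of the 29 values lay above 0, against 49.6% of all genes. The median was 0.27 in PIP1, 0.094 in PIP2, 0.44 in TIP, 0.25 in NIP and -0.27 in SIP.

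For the other genes called with Ag+, the log2 fold changes with AgNPs were 0.29 for PIP2-6 (SE 0.14), 0.080 for PIP2-8 (SE 0.12) and 0.78 for TIP2-2 (SE 0.30). Without overlap of the libraries, 6 genes were higher, PIP2-1, PIP2-4, TIP3-1, NIP1-2, NIP3-1 and NIP7-1, and SIP2-1 was lower, where the share over all genes was 22.6%, 11.4% higher and 11.1% lower. Among the 6, TIP3-1 and NIP7-1 had enough counts for a test only through the silver libraries, so they add no support to this count. AgNPs 1 had the highest value of its group in 23 of the 29 genes, and in 42.9% of all genes tested. With CK 3 and AgNPs 1 left out together, the family median was -0.013, and with heat-shock level as a covariate it was 0.35 with 5 genes called higher, PIP1-1, PIP1-3, PIP2-1, PIP2-6 and TIP2-1. Heat-shock sums ranged over 85.1 to 575 CPM in CK and 164 to 786 in AgNPs, so the covariate is not independent of the group.

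**Figure D5:**
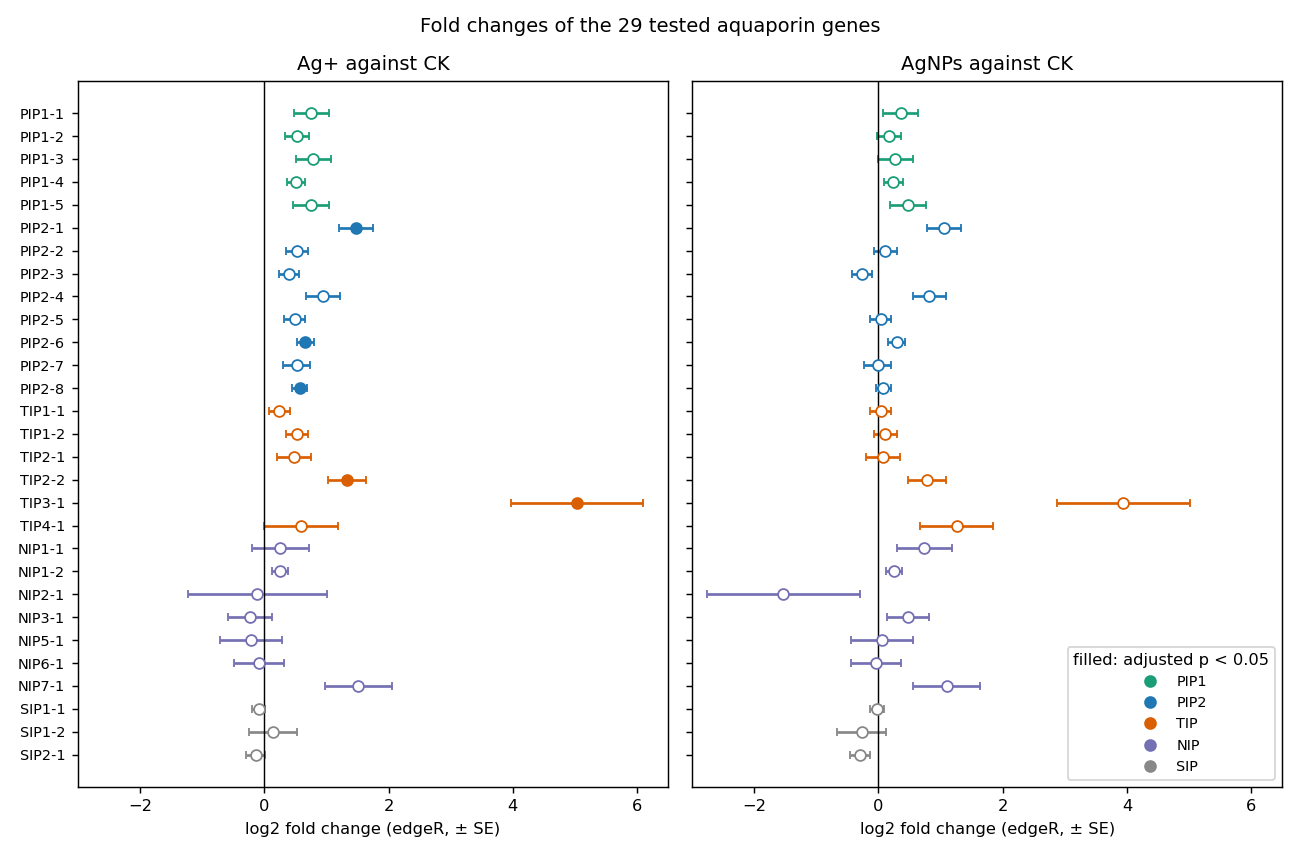
Log2 fold changes with standard errors of the 29 tested aquaporin genes for Ag+ against CK and AgNPs against CK (edgeR, 3 libraries a group), coloured by subfamily, with filled points for genes called. The 5 filled points are all in the Ag+ panel, and in that panel all PIP and TIP values lie above 0.

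AgNPs libraries were also compared directly with Ag+ libraries. Because no dose or exposure length is labelled, the form of silver and its amount cannot be told apart here. By edgeR, 0 of the 29 genes were called, against 0.684% of all genes tested, 0.508% higher and 0.176% lower. An unadjusted p under 0.05 was found for 7, all lower with AgNPs, against 14.8% of all genes. The libraries did not overlap for 1 gene higher with AgNPs, NIP3-1, and 6 lower, against 22.1% of all genes, 10.4% higher and 11.7% lower, and 6 of the 29 values lay above 0, against 48.2% of all genes. DESeq2 called PIP2-3 and PIP2-8 lower, and limma voom called 0. The median log2 fold change was -0.39 over the family, -0.45 in PIP2, -0.37 in PIP1, -0.42 in TIP, 0.039 in NIP and -0.16 in SIP, against -0.013 over all genes. With heat-shock level as a covariate the family median turned to 0.10. Heat-shock sums did not overlap between these groups (42.1 to 145 CPM in Ag+, 164 to 786 in AgNPs), so this fit cannot separate heat-shock level from the group. PIP2-3, a plasma membrane channel induced by drying, gave 19.1, 19.2 and 25.3 CPM for the Ag+ libraries and 14.8, 12.3 and 13.2 for the AgNPs libraries, which do not overlap (log2 fold change -0.66, SE 0.16, edgeR adjusted p = 0.103). Its close copy PIP2-2 was also lower without overlap (-0.42, SE 0.18, edgeR adjusted p = 0.311). Reads can match either gene, so these may not be separate results. PIP2-8 was at -0.49 on the log2 scale (SE 0.12, adjusted p = 0.106). For PIP2-1 the forms overlapped, with a fitted log2 change of -0.43 (SE 0.26, adjusted p = 0.477). Without CK 3 and AgNPs 1, PIP2-2, PIP2-3, PIP2-7, PIP2-8 and TIP1-2 were called lower.

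Genes that act on or beside aquaporins were read from short lists, chosen with earlier results of these data known. Over all genes tested, 5.57% were called for Ag+ against CK, 3.32% for AgNPs against CK and 0.684% for AgNPs against Ag+. The shares with an unadjusted p under 0.05 were 19.2%, 17.0% and 14.8%. At such shares, 0 calls in a list of this size do not show that its genes were unaffected. Of 10 tested partners and regulators, which include the trafficking syntaxins SYP121 and SYP61, the RMA ubiquitin ligases and the kinase OST1, 0 were called by edgeR in any of the 3 comparisons. Their medians were 0.044 for Ag+ against CK, -0.033 for AgNPs against CK and -0.20 for AgNPs against Ag+, and 2, 3 and 5 of them had an unadjusted p under 0.05. The same held for 6 tested proton pump genes of the plasma membrane and tonoplast (medians -0.10, -0.16 and -0.067, with 1, 1 and 2 under an unadjusted p of 0.05) and 2 tested boron exporters (-0.32, -0.10 and 0.22, with 0, 0 and 1). Over all genes tested, 3.52% were called higher with Ag+ and 2.23% with AgNPs, with medians of -0.0087 and -0.0026. Of 10 genes of osmotic stress and abscisic acid, 4 rose with Ag+ and 0 fell, with a median of 1.24. They were the proline synthesis gene P5CS1 (log2 fold change 1.45, SE 0.25, edgeR adjusted p = 0.0107), NCED3 for the rate-limiting step of abscisic acid synthesis (2.99, SE 0.50, adjusted p = 0.0112), the phosphatase gene HAI1 (1.51, SE 0.29, adjusted p = 0.0173) and the dehydrin gene RAB18 (2.24, SE 0.43, adjusted p = 0.0183). With AgNPs NCED3 rose (2.17, SE 0.49, adjusted p = 0.0494) and 9 were not called, with a median of 0.81. An unadjusted p under 0.05 was found for 7 of the 10 with Ag+ and for 7 with AgNPs. Between AgNPs and Ag+, 0 of the 10 were called, 4 had an unadjusted p under 0.05 and the median was -0.61. Among the marker lists, 0 of 5 guard cell, 0 of 10 tested root and 0 of 1 tested pollen markers were called in any comparison. An unadjusted p under 0.05 was reached by 2, 2 and 0 of the guard cell markers, 0, 1 and 1 of the root markers and 0 of the pollen markers, in the order above. Of 3 phloem markers AHA3 rose with Ag+ (log2 fold change 0.55, edgeR adjusted p = 0.0179). The 9 tested heat-shock genes had medians of -1.47 for Ag+ against CK, 1.15 for AgNPs against CK and 2.83 for AgNPs against Ag+, with an unadjusted p under 0.05 for 2, 4 and 8. Of these HSFA7A fell with Ag+ (-1.44, adjusted p = 0.00405) and was higher with AgNPs than with Ag+ (1.07, adjusted p = 0.0498).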

How the data were processed

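Ribosomal RNA was removed and 150 bp paired-end sequencing was done on 1 lane, per the labels' protocols. HISAT2 and the build TAIR10 are named in the submitters' processing notes, while for the counter, strand setting and annotation the sources used here give nothing. What the authors deposited is a table of raw counts, with 9 columns matched to samples by their descriptions. All 9 libraries were fitted together with the group as the only term (edgeR 4.0.16 in R 4.3.3, quasi-likelihood test with robust dispersions, filterByExpr, TMM factors), with Benjamini-Hochberg adjustment over the 19889 genes in each of 3 comparisons. The common biological coefficient of variation was 22.5%. The SE was taken as the size of the log2 fold change over the root of its F statistic. The fit was also run on simulated counts, drawn with a common spread for all genes and with changes only in well-counted genes. That run does not cover uneven libraries or genes as low as TIP3-1.

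Alternatives were other scalings and filters, DESeq2 1.42.0, limma 3.58.1, the 6 libraries compared, covariates and left-out libraries. Replicate pairs differed by 8.99 to 64.2 chi-square per degree of freedom, above counting noise, and each library was counted as 1 sample. Deviations from the group means correlated between same-numbered CK and Ag+ libraries at 0.123, 0.186 and 0.231, and between differently numbered ones at -0.182 to 0.049. The largest value of all, 0.291, was that of Ag+ 2 with AgNPs 1, which differ in number. A pairing by number is not in the labels and is not established by these values, and the block was fitted only as an alternative. Same-numbered libraries of AgNPs and CK correlated at -0.114 to -0.024, and those of AgNPs and Ag+ at -0.206 to 0.122, which does not pair them.

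Of 35 members, 34 names stood at their locus in the RefSeq table of assembly TAIR10.1, and TIP3-2 is listed there as BETA-TIP. Transcript lengths and coding sequences came from its annotation, whose build is not the one in the notes. Of 92 list entries 3 were dropped because the table does not name the gene. Every member is named, with each library's value for genes called and for the gene with the most counts of each subfamily. Members and lists were chosen with earlier results of these data known. Limits for counts of 0 cover counting error only.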

Additional observations from a re-analysis of the deposited data

How the results depend on the processing

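The median log2 fold change of the tested aquaporin genes for Ag+ against CK kept its sign and lay between 0.39 and 0.57 in all alternatives run, and the count of 5 called genes did not hold. It was 3 with the heat-shock covariate, 8 without CK 3 and AgNPs 1 together, and 0 to 7 with each library left out in turn, where 0 were called without CK 2, Ag+ 1 or Ag+ 2, 1 without CK 1, 2 without Ag+ 3 and 3 without AgNPs 2. These fits hold fewer libraries. For AgNPs against CK the count of 0 became 2 with DESeq2, 1 with the replicate block, 5 with the heat-shock covariate and 0 to 1 with a library left out, and the median of 0.17 became 0.35 with the heat-shock covariate and -0.013 without CK 3 and AgNPs 1. For AgNPs against Ag+ the count of 0 became 2 with DESeq2 and 5 without CK 3 and AgNPs 1, and was 0 with each single library left out. The median of -0.39 became 0.10 with the heat-shock covariate, whose levels do not overlap between these groups, and the cause was not tested. The replicate block was fitted to all groups, although a pairing of libraries by number is not established. It gave 6 calls (Ag+ against CK) when all 9 libraries were fitted and 7 when only 6 were, an alternative chosen after seeing the data. Apart from the calls named in the report it changed no other call of a member. Over all genes, calls for Ag+ against CK numbered 1108, and 1901 with DESeq2, 2003 without CK 3 and AgNPs 1, and 419 to 1372 with a library left out. For AgNPs against CK they numbered 660, and 1447 with DESeq2, 1603 without CK 3 and AgNPs 1, 1131 with the heat-shock covariate, 351 in the 6 libraries and 224 to 809 with a library left out. For AgNPs against Ag+ they numbered 136, and 870, 1276, 375 and 408 in these fits, 236 with the replicate block, 47 with limma voom and 0 to 444 with a library left out. Among genes near or under 1 CPM, the log2 fold change of NIP2-1 for Ag+ against CK ranged from -0.81 to 1.70 across alternatives and that of NIP3-1 from -0.45 to -0.11. NIP2-1 had 43, 9 and 0 counts in the CK libraries and NIP3-1 had 17, 14 and 16, and 6 genes had too few counts at this depth to be tested.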
